A study of Mus musculus with 20 samples.

Results

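DNA replication genes encode the proteins that license and fire origins, unwind and copy the double helix, and supply its building blocks. They were taken here as a list of 42 genes, of which 41 had a probe set of their own and 1 was not analysed here, out of 18193 genes measured. The genes were listed by name. Each was read from its brightest probe set over all arrays.

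The RNA of mouse erythroid progenitors was read on 20 arrays. These are the colony-forming unit erythroid (CFU-E) cells which depend on the hormone erythropoietin (Epo) to survive. The cells came from fetal livers of BALB/c embryos at E13.5 and were enriched by magnetic removal of cells carrying Ter119 and markers of other lineages, so the sort did not select CFU-E cells positively. In one series the cells received Epo at 0.5 U/ml and were read at 0 to 8 h every hour and at 14, 19 and 24 h (12 arrays). In the other they received no Epo and were read at 0 to 7 h every hour (8 arrays). All cells shared the sort. The labels describe what followed in 2 ways, as starvation of fresh cells for 1 h and as a period of culture with Epo. The labels do not state how many embryos were pooled. There was 1 array per treatment and time, and no label says whether each time had its own culture. The p-values therefore rest on how single arrays scatter around the fit, and that scatter may be technical. In such bulk samples, fewer cells of a type and less RNA per cell cannot be told apart.

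Replication is prepared in G1. The origin recognition complex with Cdc6 and Cdt1 then loads the MCM helicase, a ring of 6 related subunits, onto origins. At the start of S phase the kinase pair Dbf4 and Cdc7 and the proteins Cdc45 and GINS turn the loaded ring into a moving helicase, and the polymerases follow with the sliding clamp Pcna and its loader. CFU-E cells divide rapidly, and many of the genes are known targets of E2F transcription factors, which drive entry into S phase.

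The promoters of 6 members are shown: Mcm5, Mcm6 and Mcm7 stand for the helicase ring, all of whose subunits were lower with Epo, Cdc6 and Gins3 had the largest differences, and Rfc3 differed the other way. All 6 were picked among the windows that hold an E2F word. They are RefSeq windows on GRCm38.p6 from 250 bases before to 50 after a gene's start, 5′ to 3′ on the gene's strand. Capitals mark the E2F words searched for on both strands, TTTCCCGC, TTTGGCGC, TTTCGCGC and TTTGCCGC or their reverse complements, which can overlap each other.
Mcm5 (chr8:75109259-75109558, plus strand): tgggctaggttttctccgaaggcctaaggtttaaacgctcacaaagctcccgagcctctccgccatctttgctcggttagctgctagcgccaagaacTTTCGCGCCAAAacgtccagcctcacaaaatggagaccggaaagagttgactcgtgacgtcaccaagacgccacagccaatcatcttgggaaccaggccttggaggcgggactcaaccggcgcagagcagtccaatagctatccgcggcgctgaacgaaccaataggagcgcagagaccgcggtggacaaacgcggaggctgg
Mcm6 (chr1:128359656-128359955, minus strand): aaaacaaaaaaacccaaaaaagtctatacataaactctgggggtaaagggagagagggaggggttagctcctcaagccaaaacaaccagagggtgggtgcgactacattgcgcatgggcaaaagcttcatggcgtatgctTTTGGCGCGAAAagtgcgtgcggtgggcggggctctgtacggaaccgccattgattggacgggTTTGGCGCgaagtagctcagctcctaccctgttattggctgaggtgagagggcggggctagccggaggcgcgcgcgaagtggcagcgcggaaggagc
Mcm7 (chr5:138171834-138172133, minus strand): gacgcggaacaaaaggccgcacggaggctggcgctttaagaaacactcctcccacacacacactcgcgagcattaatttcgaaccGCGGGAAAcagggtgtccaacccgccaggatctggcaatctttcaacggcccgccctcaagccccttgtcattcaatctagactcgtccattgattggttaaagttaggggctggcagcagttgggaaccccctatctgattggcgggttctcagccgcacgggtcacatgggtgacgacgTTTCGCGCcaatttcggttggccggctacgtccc
Cdc6 (chr11:98907901-98908200, plus strand): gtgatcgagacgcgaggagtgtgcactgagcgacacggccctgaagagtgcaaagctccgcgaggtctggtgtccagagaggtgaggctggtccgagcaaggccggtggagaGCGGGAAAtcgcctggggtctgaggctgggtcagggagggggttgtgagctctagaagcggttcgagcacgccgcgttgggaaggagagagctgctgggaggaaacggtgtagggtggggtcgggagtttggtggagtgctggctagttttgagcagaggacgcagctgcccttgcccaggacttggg
Gins3 (chr8:95633309-95633608, plus strand): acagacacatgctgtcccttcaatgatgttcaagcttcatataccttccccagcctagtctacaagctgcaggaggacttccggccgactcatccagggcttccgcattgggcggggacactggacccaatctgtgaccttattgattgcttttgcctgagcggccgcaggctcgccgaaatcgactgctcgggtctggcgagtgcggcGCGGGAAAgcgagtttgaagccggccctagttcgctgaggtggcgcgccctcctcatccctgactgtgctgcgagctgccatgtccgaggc
Rfc3 (chr5:151651159-151651458, minus strand): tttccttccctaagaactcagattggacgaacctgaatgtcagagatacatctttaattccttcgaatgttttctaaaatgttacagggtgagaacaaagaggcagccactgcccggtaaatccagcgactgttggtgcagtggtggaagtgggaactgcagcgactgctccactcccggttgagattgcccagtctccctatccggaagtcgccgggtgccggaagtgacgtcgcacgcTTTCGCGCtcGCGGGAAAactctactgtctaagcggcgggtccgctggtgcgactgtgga
The table held 39 windows for 33 members. An E2F word was found in 12 of the 39 (30.8%), each of another member, against 744 of 32851 windows of all genes (2.27%). The short word CCAAT, the core of the NF-Y motif, was found in 23 of the 39 windows (59.0%) against 12289 of all (37.4%). Among MCM genes with a window, 4 of 5 held an E2F word and 5 of 5 held CCAAT. An E2F word was present for 9 of the 21 members lower with Epo that had a window and for 1 of the 3 higher with Epo. By the rise over time without Epo, given below, it was present for 6 of the 19 that rose and had a window. Of those that did not rise, 6 of 14 held it. A match is a description of these letters and not of binding.

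The members were among the bright genes of these arrays. All 41 lay above the median gene level of 4.91 (log2 signal) and 27 lay among the brightest 10% of genes. Probe sets bind with different strength, so signals of different genes are not compared as levels of RNA. Pcna lay between 13.43 and 13.60 with Epo and between 13.51 and 13.77 without, at 1 to 7 h.

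**Figure D1:**
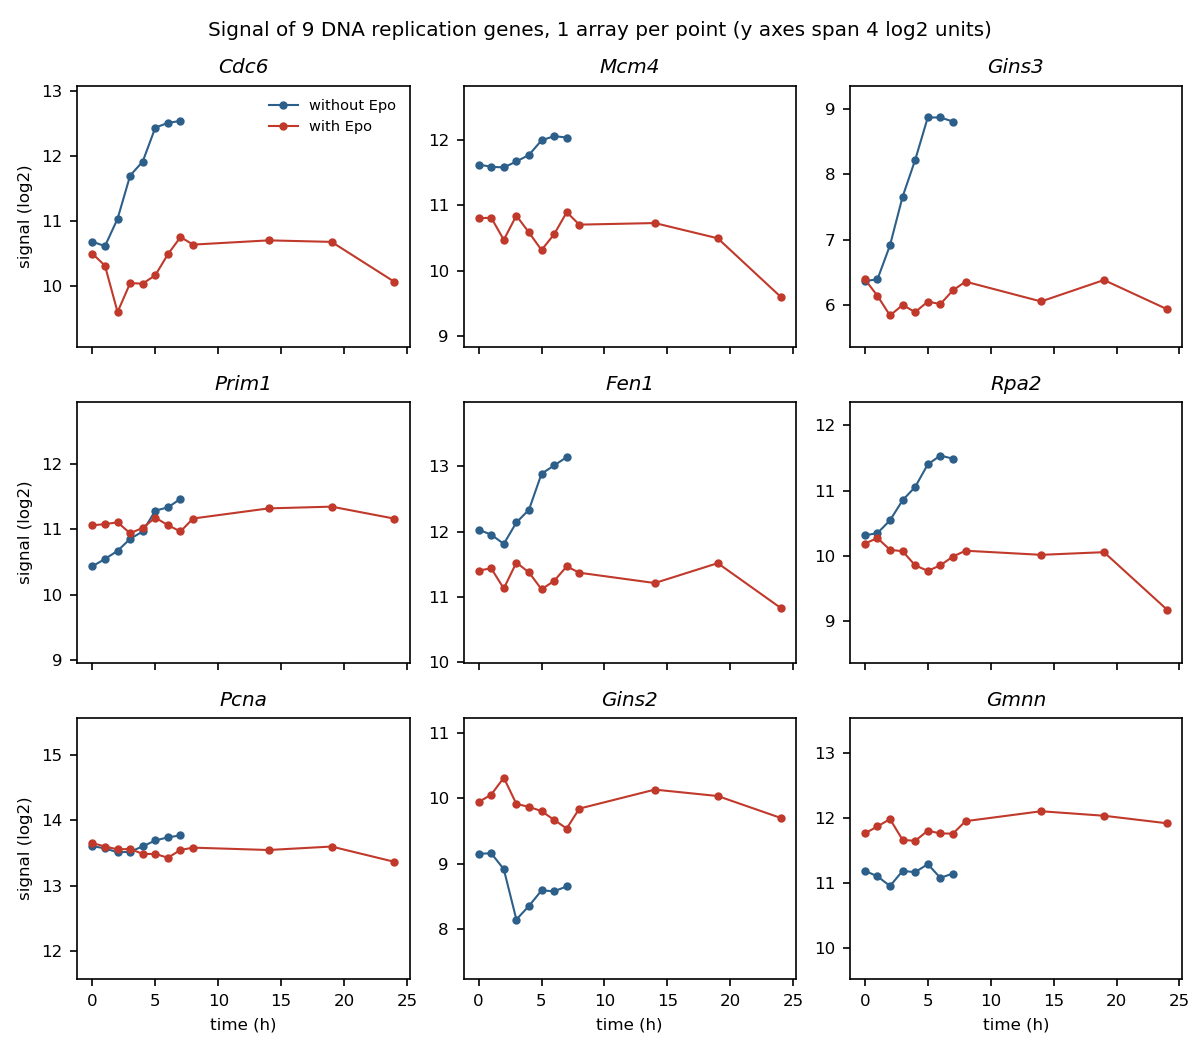
Log2 signal against time in hours for 9 members, 1 array per point, with each y axis spanning 4 log2 units. Without Epo, Cdc6 and Gins3 climb from 10.68 and 6.36 at 0 h to 12.54 and 8.81 at 7 h, while with Epo they stand at 10.76 and 6.22 at 7 h.

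With Epo, more replication genes were lower than higher over 1 to 7 h. Of the 41 members, 23 were lower, 6 were higher and 12 did not pass the test (limma across all genes on the 7 matched pairs of arrays, an adjusted p under 0.05 by Benjamini-Hochberg). For comparison, 20.2% of all genes were called lower and 18.2% higher, and of the brightest 10% of genes 31.9% and 36.9%. The median difference of the members, with Epo minus without, was -0.56 on the log2 scale, against 0.03 over all genes. Differences of at least 2-fold, a log2 difference of 1, were called in 7 members lower with Epo (3.67% of all genes) and in 2 higher (2.86%). All 7 arrays with Epo lay below all 7 without in 17 members (7.31% of all genes) and above them in 4 (6.56%).

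**Figure D2:**
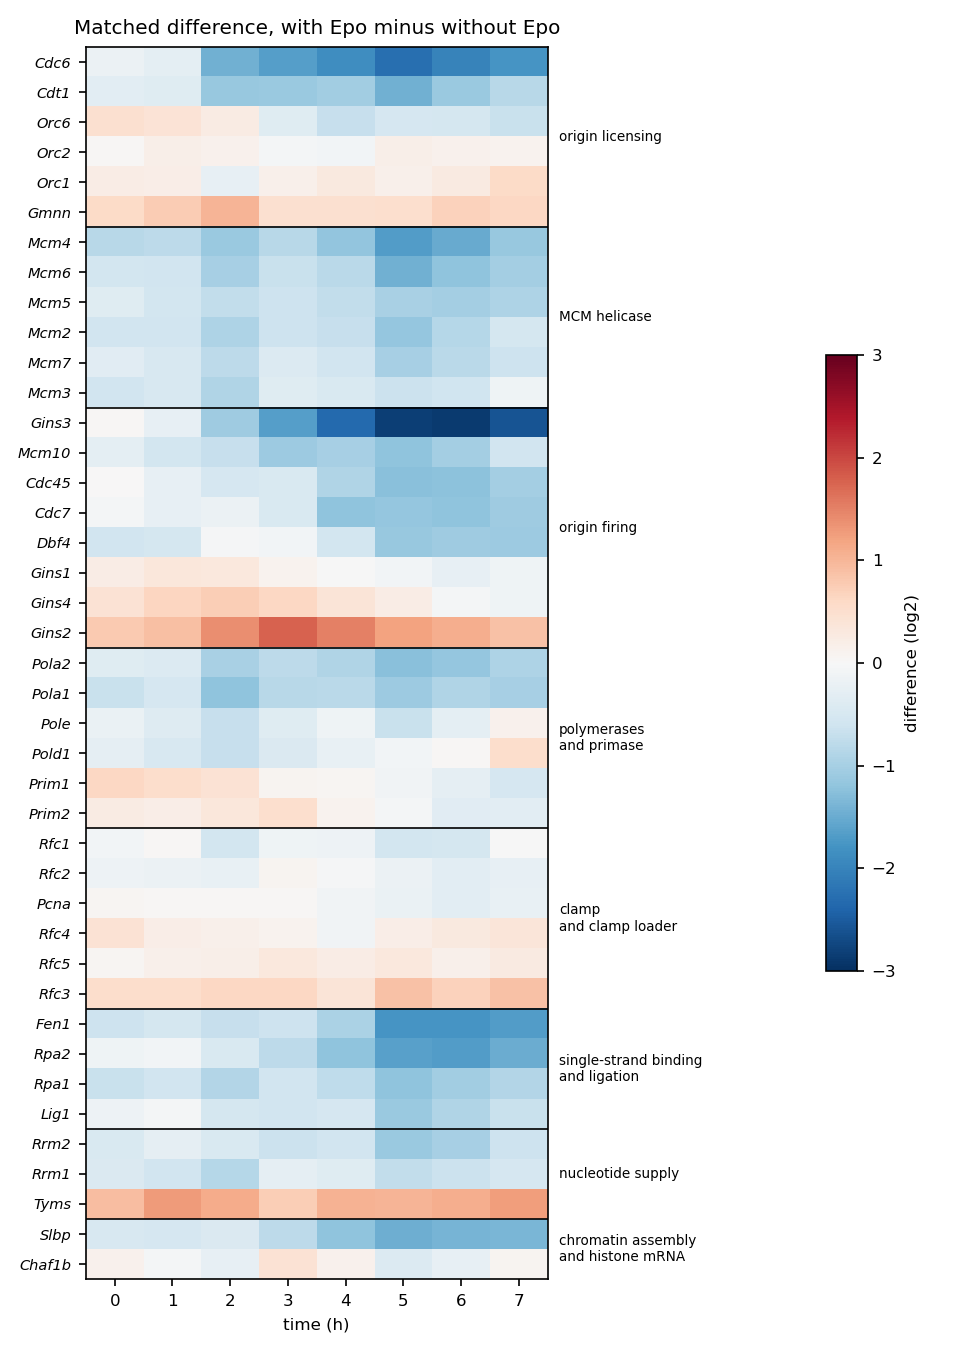
Log2 difference at each hour, with Epo minus without, for 41 members in 8 role groups (rows) at 0 to 7 h (columns), with blue for lower and red for higher with Epo. The darkest blue is that of Gins3 at 5 and 6 h, and the MCM rows are blue at every hour, 0 h included.

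Among the genes of origin licensing, Cdc6 and Cdt1 were lower with Epo and Gmnn was higher. Cdc6, which helps load the MCM ring, lay at 9.61 to 10.76 (median 10.17) with Epo and at 10.62 to 12.54 (median 11.91) without, over 1 to 7 h. It was lower with Epo at all 7 hours, but the ranges overlapped, since its highest array with Epo (7 h) lay above its lowest without (1 h). The mean difference was -1.62 ± 0.18 (SE, adjusted p = 4.33e-05). Cdt1, the other loading factor, differed by -1.001 ± 0.103 without overlap, its highest array with Epo at 11.71 and its lowest without at 11.88. Gmnn encodes geminin, the inhibitor of Cdt1, and differed the opposite way, by 0.65 ± 0.07. It was named after its values were seen, at 11.65 to 11.98 (median 11.76) with Epo and 10.96 to 11.29 (median 11.14) without. The 3 measured subunits of the origin recognition complex did not pass the test: Orc1 differed by 0.20, Orc2 by 0.08 and Orc6 by -0.30. Orc2 had the smallest difference of the group, at 9.78 to 10.27 (median 10.17) with Epo and 9.83 to 10.14 (median 9.99) without. A dimmer probe set of Orc1 differed by 1.50, and the mean of the gene's probe sets did pass (0.85, adjusted p = 7.04e-05).

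All 6 subunits of the MCM helicase ring were lower with Epo, at all 7 hours and with no overlap between the series. Mcm4 differed most, by -1.18 ± 0.10 (adjusted p = 8.36e-06), at 10.32 to 10.90 (median 10.59) with Epo and 11.58 to 12.06 (median 11.78) without. Mcm3 differed least, by -0.51 ± 0.09 (adjusted p = 0.000645), at 10.32 to 10.85 (median 10.64) with Epo and 10.98 to 11.33 (median 11.11) without. Mcm6 differed by -0.96, Mcm5 by -0.80, Mcm2 by -0.77 and Mcm7 by -0.67. The 6 genes were already lower in the Epo series at 0 h, by -0.34 for Mcm7 to -0.82 for Mcm4, with a median of -0.55. At 5 h the median was -1.08.

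The genes of origin firing were split, and the split ran through the GINS complex, 4 proteins that travel with Cdc45 and the MCM ring. Gins3 was lower by -1.94 ± 0.28 (adjusted p = 0.000242), the largest difference of any member. It lay at 5.84 to 6.22 (median 6.01) with Epo and 6.39 to 8.87 (median 8.22) without, so the ranges did not overlap, and the series without Epo was far more spread. Gins2, named after its values were seen, was higher by 1.26 ± 0.11 (adjusted p = 1.04e-05), at 9.54 to 10.32 (median 9.87) with Epo and 8.14 to 9.16 (median 8.59) without. Gins4 was higher by 0.34 (adjusted p = 0.0345), a call lost when each array was centred on its median (0.27, adjusted p = 0.0891) and without any one of 1 to 5 h (adjusted p = 0.0563 to 0.0976). Gins1 had the smallest difference, 0.04 (adjusted p = 0.767), at 10.14 to 10.46 (median 10.27) with Epo and 10.06 to 10.40 (median 10.25) without.

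The other firing factors were lower with Epo. Mcm10, which helps activate the helicase, differed by -0.88, Cdc45 by -0.80, the kinase gene Cdc7 by -0.78 and its regulatory partner Dbf4 by -0.64. Each was lower at 7 of 7 hours. With the mean of both its probe sets, Dbf4 was at -0.30 and did not pass (adjusted p = 0.0832). The Mcm10 value rests on 1 probe set, since another one above the median level differed by 0.20. That was also the value obtained without suffixed probe sets, those whose names end in _a_at, _s_at or _x_at.

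Of the polymerases, both measured subunits of DNA polymerase alpha, the enzyme that starts each new strand, were lower. Pola2 differed by -0.91 ± 0.10 (adjusted p = 4.52e-05), at 8.48 to 9.03 (median 8.65) with Epo and 9.39 to 9.89 (median 9.62) without. Pola1, the catalytic subunit, differed by -0.91 without overlap. The 2 dimmer probe sets of Pola2 differed the other way, by 0.22 and 0.75, and the mean of all 3 did not pass (0.018, adjusted p = 0.877). Pole, the catalytic subunit of the leading-strand polymerase, was lower by -0.35 (adjusted p = 0.0301), a call lost under quantile normalization (-0.19, adjusted p = 0.182) and without 2, 3, 5 or 6 h (adjusted p = 0.0602 to 0.0904). Pold1, of the lagging-strand polymerase, differed by -0.19 and did not pass. The primase subunits, which lay the RNA primers, did not pass either, with 0.03 for Prim1 and 0.07 for Prim2. Prim1 lay at 10.94 to 11.18 (median 11.06) with Epo and 10.55 to 11.47 (median 10.97) without. It was higher with Epo at 4 hours and lower at 3.

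In the clamp and its loader, 2 of 6 members were higher with Epo and none was called lower. Under median centring of each array, however, Pcna (-0.18, adjusted p = 0.0213), Rfc1 (-0.34, 0.0336) and Rfc2 (-0.23, 0.0450) were called lower. Pcna differed by -0.11 ± 0.05 (adjusted p = 0.130), with medians of 13.55 with Epo and 13.60 without. Rfc3, a subunit of the loader, was higher by 0.66 ± 0.09 (adjusted p = 0.000123), at 9.28 to 9.56 (median 9.41) with Epo and 8.45 to 9.03 (median 8.78) without. Rfc5 was higher by 0.23 (adjusted p = 0.0155), which was lost under median centring (0.16, adjusted p = 0.0907). The remaining loader subunits did not pass, with -0.27 for Rfc1, -0.16 for Rfc2 and 0.17 for Rfc4. Both dimmer probe sets of Rfc1 were further apart, by -1.03 and -0.66, and the mean of the gene's probe sets passed (-0.65, adjusted p = 0.000809). With the mean of its probe sets Rfc4 also passed (0.33, adjusted p = 0.00307).

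All 4 genes of single-strand binding and ligation were lower with Epo. Fen1, the nuclease that trims Okazaki fragments, differed by -1.14 ± 0.16 (adjusted p = 0.000223), at 11.12 to 11.53 (median 11.38) with Epo and 11.81 to 13.14 (median 12.34) without. Lig1, the ligase that joins the fragments, differed least in the group, by -0.62 ± 0.11 (adjusted p = 0.000841). It lay at 9.73 to 10.21 (median 10.08) with Epo and 10.17 to 10.89 (median 10.65) without, with a slight overlap. Rpa2 and Rpa1, subunits of the protein that coats single-stranded DNA, differed by -1.05 and -0.85, both without overlap.

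In nucleotide supply, the ribonucleotide reductase genes were lower and Tyms was higher. Rrm1, the large subunit, differed by -0.56 ± 0.08 (adjusted p = 0.000132), at 11.04 to 11.45 (median 11.28) with Epo and 11.53 to 12.00 (median 11.91) without. The call was lost with the mean of the gene's probe sets (-0.19, adjusted p = 0.15). A second bright set differed by -0.63 and a dim one, at a mean of 2.78, by 0.64. Rrm2, the S-phase subunit, differed by -0.67. Tyms, thymidylate synthase, was higher by 1.07 ± 0.09 (adjusted p = 5.23e-06), at 5.36 to 6.25 (median 5.67) with Epo and 4.09 to 5.24 (median 4.72) without. This is a dim signal, and the gene's next brightest probe set, at a mean of 4.64, differed by -0.78. With the mean of its probe sets Tyms was at 0.18 and did not pass (adjusted p = 0.0714).

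Slbp, which binds the stem-loop of replication-dependent histone mRNAs, was lower by -1.03 ± 0.13 (adjusted p = 9.36e-05), at 10.81 to 11.17 (median 11.08) with Epo and 11.56 to 12.46 (median 12.11) without. A dimmer probe set of Slbp differed by 0.77, and with the mean of its probe sets the gene did not pass (-0.10, adjusted p = 0.369). Chaf1b, a subunit of the chromatin assembly factor that places histones behind the fork, did not pass, with -0.05 (adjusted p = 0.778). It lay at 7.53 to 8.18 (median 7.85) with Epo and 7.52 to 8.25 (median 7.95) without.

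The further probe sets of the called members gave the same direction in 27 of 38 cases. Among the 26 above the median gene level, 23 had the same direction, and the 3 exceptions belonged to Cdc45, Mcm10 and Slbp.

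The 2 series already differed at 0 h. Of the members, 24 were lower and 17 higher in the Epo series at 0 h, none by 1 or more, while 0.632% of all genes were lower and 2.4% higher by that much. The median member difference was -0.14 at 0 h, -0.25 at 1 h, -0.45 at 2 h, -0.37 at 3 h, -0.51 at 4 h, -0.73 at 5 h, -0.64 at 6 h and -0.52 at 7 h. Members at least 1 lower with Epo numbered 0 at 1 h, 5 at 2 h, 4 at 3 h, 7 at 4 h, 19 at 5 h, 15 at 6 h and 10 at 7 h. Of all genes, 0.74% were that much lower at 1 h, 3.74% at 2 h, 3.25% at 3 h and 4.80% at 4 h. The share was 8.61% at 5 h, 7.18% at 6 h and 6.15% at 7 h.

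Against each series' own 0 h array, fewer members passed. With the 0 h difference subtracted and a linear drift of the difference over 1 to 7 h allowed, 4 of 41 members were lower with Epo and 0 higher by limma, against 2.39% and 1.34% of all genes and 4.51% and 5.38% of the brightest 10%. At an unadjusted p under 0.05, 15 of 41 members passed in either direction, against 3200 of 18193 genes in all and 624 of the 1820 brightest. The 4 were Gins3 (-1.97 ± 0.35, adjusted p = 0.00873), Cdc6 (-1.43 ± 0.31, 0.0226), Rpa2 (-0.92 ± 0.20, 0.0234) and Prim1 (-0.59 ± 0.13, 0.0226). Prim1 itself differed by only 0.03 over 1 to 7 h, and by 0.63 in the single pair at 0 h. The call was lost in 5 of 14 alternatives for Cdc6, 4 of 15 for Prim1, 3 of 15 for Rpa2 and 1 of 15 for Gins3. Without the drift term 0 members passed, against 9 genes lower and 3 higher of 18193 in all. The adjusted p was then 0.621 for Gins3 and 0.597 for Cdc6. Without the 6 h arrays 1 member passed as lower, against 0.704% of all genes lower and 0.247% higher. The median over the members was -0.20. Gmnn (0.08), Tyms (0.14) and Rfc3 (0.13), called higher above, differed little from their 0 h differences of 0.57, 0.93 and 0.53. Gins2 kept 0.46 of its 1.26 and did not pass (adjusted p = 0.428). Of the MCM genes, Mcm5 came nearest to the threshold (-0.43, adjusted p = 0.0506), and Mcm3 was at 0.07.

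**Figure D3:**
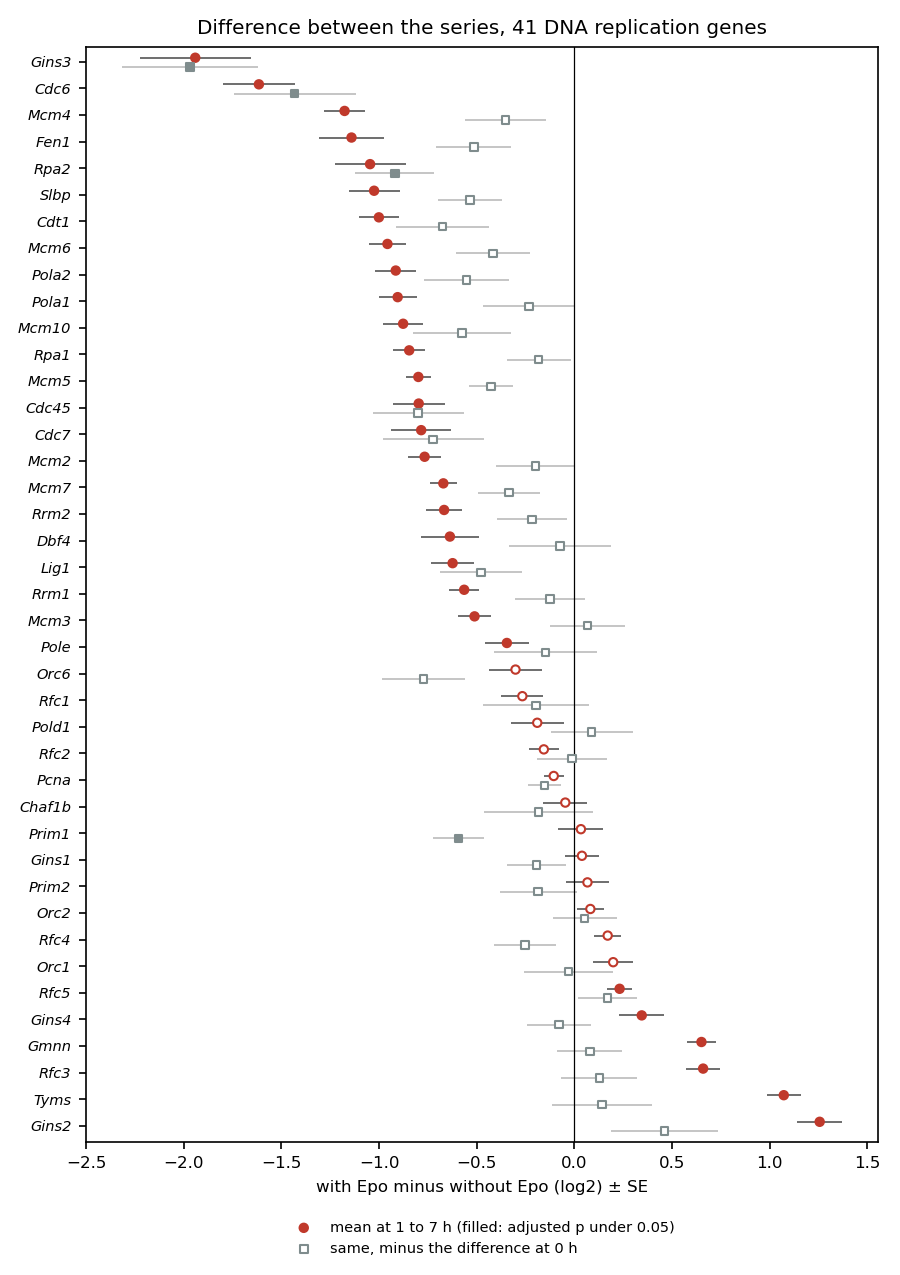
Log2 difference with Epo minus without (x axis) for 41 members ordered by it (y axis). Circles give the mean over 1 to 7 h and squares the same minus the 0 h difference, both with SE, and filled marks have an adjusted p under 0.05. The squares of Gins3, Cdc6 and Rpa2 stay near their circles, and those of Tyms, Gmnn and the MCM genes move toward 0.

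The difference between the series changed over 1 to 7 h for many members, and not always toward a wider gap. The matched difference of Gins4, Orc6, Prim1, Gins1, Prim2 and Pcna crossed from higher with Epo at 1 h to lower at 7 h. In the slope of the matched differences, scaled to the 6 h span, 15 members moved lower with Epo and 1 higher by limma, against 7.97% and 7.25% of all genes and 18.1% and 24% of the brightest 10%. Gins3 moved by -2.52 ± 0.37 (adjusted p = 0.000385), Rpa2 by -1.63 ± 0.21 (0.000178), Fen1 by -1.46 ± 0.20 (0.000269) and Cdc6 by -1.33 ± 0.33 (0.0126). The Cdc6 change rested on the 1 h pair: without it the value was -0.56 and did not pass (adjusted p = 0.176). The sole member to move higher was Pold1, by 1.05 ± 0.22 (0.00491). Without the 6 h arrays 8 moved lower, and without the 7 h arrays Pold1 did not pass.

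Read by series, more members changed without Epo than with it. From 0 to 7 h without Epo, 22 members rose and 4 fell in a linear fit by limma, against 13.3% and 15.4% of all genes and 25.7% and 37.1% of the brightest 10%. The median change over the 7 h was 0.38, against -0.03 over all genes and -0.11 among the brightest. This comparison shares its arrays without Epo with those above. Gins3 rose by 3.00 ± 0.29 (adjusted p = 2.58e-05) and Cdc6 by 2.23 ± 0.19 (1.51e-05). By hour, Gins3 stood at 6.36, 6.39, 6.91, 7.66, 8.22, 8.87, 8.87 and 8.81 from 0 to 7 h. It climbed from 2 to 5 h and then stayed level. Cdc6 stood at 10.68, 10.62, 11.04, 11.70, 11.91, 12.43, 12.50 and 12.54. It too climbed from 2 h on.

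Rises without Epo were spread over the roles. In origin firing 7 of 8 members rose, among them Cdc45 (1.25), Cdc7 (1.18) and Dbf4 (1.02), and Gins2 did not pass (-0.60). All 4 genes of single-strand binding and ligation rose, with 1.41 for Rpa2, 1.38 for Fen1, 0.76 for Lig1 and 0.41 for Rpa1. In licensing, Orc6 (1.23) and Cdt1 (0.75) rose beside Cdc6. Of the MCM ring, Mcm4 (0.55), Mcm6 (0.47) and Mcm5 (0.43) rose, Mcm3 fell by 0.37, and Mcm2 (0.07) and Mcm7 (0.10) did not pass. Prim1 rose by 1.10, and with it Tyms (0.99), Slbp (0.90), Mcm10 (0.70), Rrm2 (0.68), Gins4 (0.65), Gins1 (0.32) and Pcna (0.22). The smaller rises were the least stable: of 16 alternatives, the call was lost in 12 for Gins1, 8 for Pcna and 7 for Rpa1. Besides Mcm3, the members that fell were Pold1 (-1.12), Rfc2 (-0.61) and Rfc3 (-0.44), and the last of these lost its call in 7 alternatives. Over the same arrays, 11 of 11 hepatocyte markers fell (median -1.95), 5 of 11 granulocyte markers fell and 5 of 8 erythroid markers rose (median 0.89), and their part in these changes was not tested. Of all members, 23 had their highest signal of all 20 arrays at 5, 6 or 7 h without Epo, as did 14.1% of all genes.

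With Epo over the same hours, few members changed. Tyms rose by 1.11 ± 0.20 (adjusted p = 0.00331), Rfc2 fell by 0.74 ± 0.15 (0.00557) and Prim2 fell by 0.63 ± 0.14 (0.00946). That is 1 rise and 2 falls, against 2.21% and 5.88% of all genes by limma and 6.48% and 9.95% of the brightest 10%. The rise of Tyms did not pass with the mean of its probe sets or with 8 h added. The median over the members was -0.11. Gins3 changed by -0.11 and Cdc6 by 0.36, neither past the test. With Epo too, 11 of 11 hepatocyte markers fell (median -2.13), and 4 of 8 erythroid markers rose, and their part was not tested. The range of a member over 0 to 7 h was wider without Epo in 26 of 41, with medians of 0.61 without and 0.53 with Epo, against 50.9% of all genes.

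**Figure D4:**
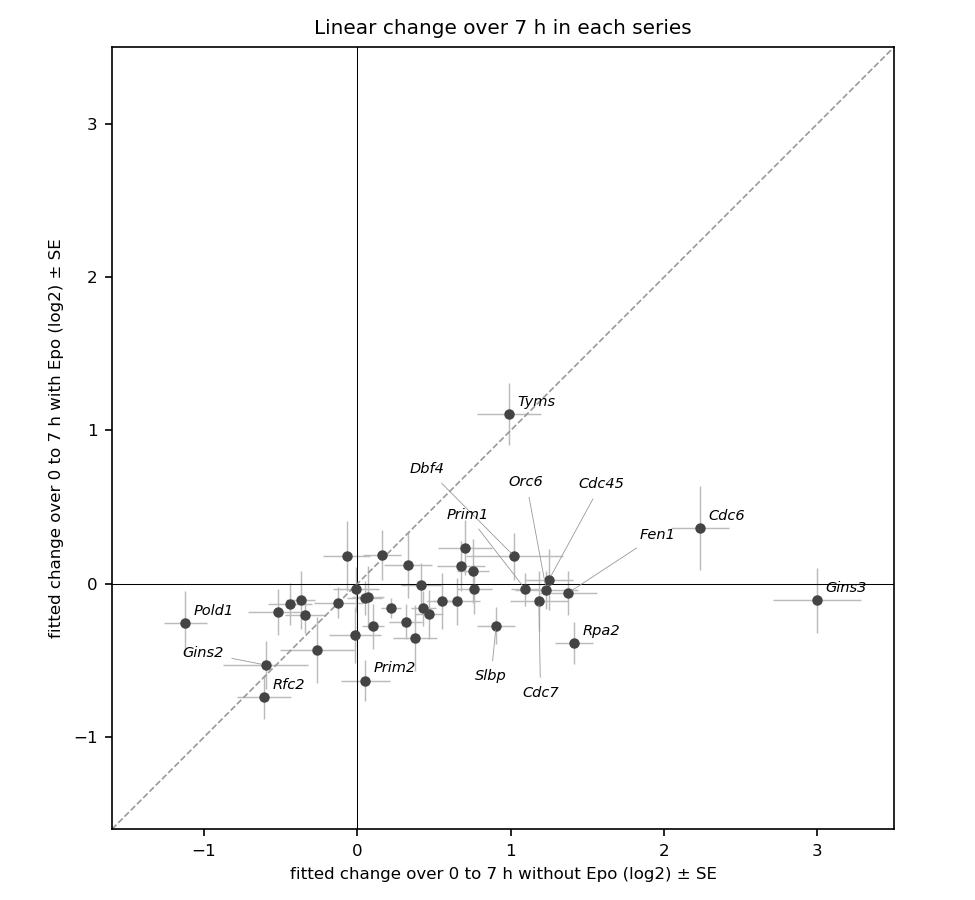
Fitted log2 change from 0 to 7 h without Epo (x axis) and with Epo (y axis), 1 point per member with SE bars and a dashed line of equal change. Most points lie right of 0 and close to the horizontal line at 0, with Gins3 (3.00) and Cdc6 (2.23) farthest right and Tyms near the dashed line.

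The late hours exist only with Epo. The mean of 14, 19 and 24 h was higher than that of 1 to 8 h in 4 of 41 members and lower in 0 by limma, against 17.6% and 18.5% of all genes and 18% and 40.9% of the brightest 10%. At an unadjusted p under 0.05, 8 of 41 members passed in either direction, against 8401 of 18193 genes in all and 1226 of the 1820 brightest. Cdc45 lay at 8.25 ± 0.17 (SD, n = 3 times) late and 7.82 ± 0.20 (n = 8 times) early, a difference of 0.43 (adjusted p = 0.0302). Rrm2 lay at 12.24 ± 0.16 late and 11.82 ± 0.19 early (0.42, adjusted p = 0.0113). Gins4 lay at 10.50 ± 0.09 late and 10.09 ± 0.14 early (0.41, adjusted p = 0.00788). The fourth was Rfc4, with 0.31 (adjusted p = 0.0230). The largest falls did not pass: Pold1 at -0.42 (adjusted p = 0.0545), Mcm4 at -0.37 (0.139) and Mcm3 at -0.29 (0.239). Pold1 stood at 8.41, 8.29 and 7.63 at 14, 19 and 24 h, Mcm4 at 10.73, 10.50 and 9.60, and Mcm3 at 10.65, 10.66 and 9.66. For all 3 the low value was the 24 h array.

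At 24 h all 41 members were below their 19 h value, as were 51.3% of all genes. The median step was -0.61, against -0.24 among the brightest 10% and -0.01 over all genes. From the own 0 h, the members stood at a median of -0.44 at 24 h, near the -0.42 of the brightest 10%. The 24 h array was the lowest of the 12 with Epo in 22 of 41 members. That held for 54.3% of the brightest 10% and 24.9% of all genes. The MCM genes stood at a median of -0.83 from their own 0 h at 24 h and -0.13 at 19 h. The 24 h array also had the narrowest spread of values, an SD of 2.31 over all probe sets against 2.42 to 2.58 on the others, and its part in the step was not tested. Without the 24 h array 7 members were higher late and 0 lower, and without the 19 h array Gins4 alone was higher. Under median centring Cdc45 (0.35, adjusted p = 0.0886) and Rfc4 (0.24, 0.103) did not pass. Without the 14 h array 3 were higher and 2 lower. Late against early, 9 of 11 hepatocyte markers fell (median -2.79) and 6 of 8 erythroid markers rose (median 0.48). Of 11 granulocyte markers 5 rose and 3 fell, and the part of these genes in the late differences was not tested.

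**Figure D5:**
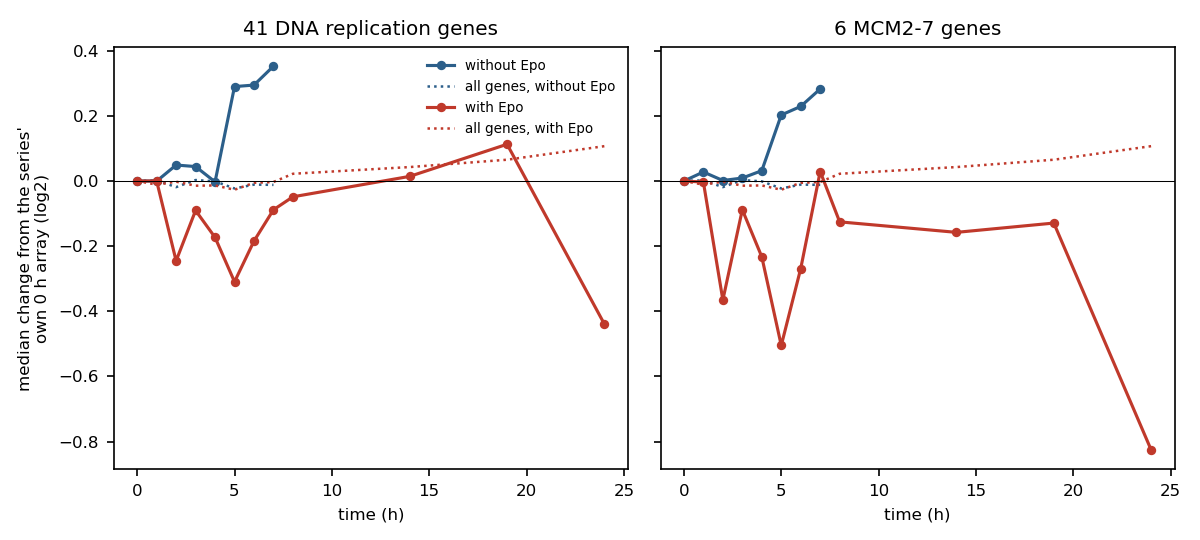
Median log2 change from each series' own 0 h array against time in hours, for 41 members (left) and 6 MCM genes (right), with dotted lines for all genes. The line without Epo reaches 0.35 at 7 h for the members, and the line with Epo falls to -0.44 at 24 h for the members and -0.83 for the MCM genes. The brightest 10% of genes, not drawn, stood at a median of -0.42 at 24 h.

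Other genes of replication and the cell cycle were read from lists. Of 37 further replication genes, 16 were lower and 10 higher with Epo over 1 to 7 h, with a median of -0.10. Atad5, which helps unload the clamp, differed by -1.45 and Dck, the deoxycytidine kinase, by -1.26. Dctpp1, a pyrophosphatase that cleanses the nucleotide pool, differed by 1.68 and Rpa3, the small subunit of the single-strand binding protein, by 1.32, against -1.05 and -0.85 for Rpa2 and Rpa1. Of 22 genes of the E2F and RB families and G1/S cyclins, 12 were lower and 3 higher (median -0.42). E2f2 differed by -1.42, Rb1 by -1.17, E2f7 by -1.07 and E2f6, a repressor of the family, by 1.21. Of 23 genes of mitosis and the spindle, 17 were lower and 0 higher (median -0.66), led by Kif11 (-1.81), Nusap1 (-1.62), Aurkb (-1.19) and Prc1 (-0.85). Late with Epo, 16 of these 23 were higher and 0 lower, against the 4 of 41 replication genes. Of 17 genes of the replication checkpoint and repair, 10 were lower and 0 higher (median -0.41). The background shares over all genes given above hold for these lists.

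The cells carried the defining genes of the erythroid line. Over 1 to 7 h, Gata1 stood at 10.20 with Epo and 10.92 without, Klf1 at 11.89 and 12.28 and Epor at 9.91 and 10.79. Of 8 erythroid markers, 4 were lower and 0 higher with Epo (median -0.24). After subtraction of 0 h, 0 of 8 passed (median -0.25). The globin probe set for Hba-a1 stood at 3.37 and 3.33, below the median gene level. Hepatocyte markers were higher with Epo in 9 of 11 genes (median 0.89), with a summed signal, as log2, of 12.82 to 14.43 with Epo and 12.31 to 13.59 without. At 0 h the summed signal was 15.01 in the Epo series and 13.95 in the other, and after subtraction of 0 h, 0 of 11 passed (median -0.40). Granulocyte markers were lower in 2 and higher in 1 of 11, with a summed signal of 8.59 to 8.98 with Epo and 8.67 to 10.25 without. Of 11 macrophage and 10 lymphoid markers 0 passed, and 10 and 8 of them lay below the median gene level. Of 8 megakaryocyte markers 1 was higher and 1 lower. The part of other cells in the replication gene differences was not tested.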

How the data were processed

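The deposited table held log2 signal of 45101 probe sets on 20 arrays, as its range of 1.37 to 14.6 shows. Per the labels' protocols, RNA was column-purified and labelled with biotin. The authors' summarisation and scaling are not given in the sources used here, and precision is limited by how few arrays there are.

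The platform annotation named 1 gene for 34945 probe sets, and for 34741 of these the gene was found in a RefSeq gene table of GRCm38.p6. Each of 18193 genes was read from its brightest probe set over all arrays, with no filter. The members and all lists were chosen with earlier results of these data known. Comparisons were fitted across all genes with limma 3.58.1 in R 4.3.3 (empirical Bayes with trend) and adjusted by Benjamini-Hochberg, with calls at an adjusted p under 0.05. The Epo effect used 14 arrays with time as a block, and slopes were linear in time. The fits were also run on simulated data with independent noise in every array. Such data cannot show whether the p-values hold where times share a culture. Every member is named. Ranges and medians over 1 to 7 h were given for the members with the largest and the smallest Epo effect in each role. Late, the 3 largest rises were given as mean and SD over times and the 3 largest falls by array. Other lists were given by up to 4 genes with the largest effect, but no gene of the checkpoint and repair list is reported by name. Alternatives changed scaling, probe sets, dim genes, variance model, 0 h arrays, time scale and single times. Promoters were searched with Python 3.11.15.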

Additional observations from a re-analysis of the deposited data

Results flagged for a closer look

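In the 7 matched differences of Cdc6, the 1 h value of -0.30 lay apart from the others, the nearest of which was -1.43. Without the 1 h pair the change of the Cdc6 difference over time was -0.56 and did not pass (adjusted p = 0.176), and it did not pass with robust variance moderation either (adjusted p = 0.0908). This gap was sought in 41 members, for matched differences (1 found) and for levels without Epo (0 found), and chance alone marks about 1 in 20 groups.

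The difference between the series changed over 1 to 7 h (limma, slope of the matched differences, log2 change over the span) in 16 members. It moved by -2.52 for Gins3, -1.63 for Rpa2, -1.46 for Fen1, -1.33 for Cdc6, -1.12 for Cdc7, -1.12 for Slbp, -1.06 for Orc6 and -1.03 for Dbf4. It moved by -1.01 for Prim1, -0.97 for Cdc45, -0.92 for Gins4, -0.74 for Prim2, -0.58 for Gins1, -0.44 for Mcm5 and -0.37 for Pcna. Pold1 moved the other way, by 1.05. These 15 lower and 1 higher stand against 7.97% and 7.25% of all genes and 18.1% and 24% of the brightest 10%. Of 15 alternatives, the call was lost in 5 for Gins1 and Prim2, 4 for Mcm5 and Dbf4, and 3 for Cdc45. It was lost in 2 of 15 for Pcna, 1 of 15 for Slbp and Pold1, 2 of 14 for Cdc6 and 1 of 14 for Cdc7. For Gins3, Rpa2, Fen1, Orc6, Prim1 and Gins4 it was lost in 0. For Gins4, Orc6, Prim1, Gins1, Prim2 and Pcna the matched difference went from higher with Epo at 1 h to lower at 7 h, and for Pold1 from lower to higher.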

How the results depend on the processing

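Over 1 to 7 h the members called lower with Epo numbered between 17 and 27 and those called higher between 4 and 7 under every alternative run, and no member was called in the opposite direction. The 17 came without suffixed probe sets (names ending in _a_at, _s_at or _x_at), where only 36 of the 41 members were left. Under median centring the counts were 27 and 4, and 2400 genes in all were called higher and 4466 lower, against 3312 and 3669. Leaving out single times gave 22 to 25 lower and 5 to 6 higher. By probe set, Pola2 moved to 0.018 with the mean of all probe sets. Without suffixed probe sets, Mcm10 moved to 0.20 between the series and to -0.11 over time without Epo. With the mean of all probe sets, Rrm1 (-0.19), Slbp (-0.10), Tyms (0.18) and Dbf4 (-0.30) lost their calls. The cause was not tested.

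From the own 0 h, the 4 members lower became 1 without a variance trend and 0 without drift, and 1 to 12 when single times were left out. Of all genes, 1.29% were lower without a variance trend and 0.0495% without drift. The share was 0.704% to 6.54% when single times were left out. For the change of the Epo effect, single times left out gave 8 to 17 lower and 0 to 1 higher. Over time without Epo they gave 18 to 22 rises and 2 to 6 falls, and all alternatives 17 to 23 rises. Over time with Epo they gave 1 to 6 falls, and the 1 rise became 0 with the mean of all probe sets or with 8 h included. In the late comparison the 4 members higher became 9 under quantile normalization, 2 under median centring and 1 against 6 to 8 h, and 1 to 7 when single times were left out. Over all genes, quantile normalization gave 3519 higher and 2792 lower late and median centring 2185 and 3756, against 3207 and 3372. The 0 members lower late became 1 under median centring, the mean of all probe sets or no suffixed probe sets. The same held with brighter genes only, no trend or 0 h added. Leaving out single times gave 0 to 2. These causes were not tested either. No paired analysis by replicate was possible because the labels carry no replicate numbers. No background values were used here.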
